A study of Mus musculus with 16 samples.

Results

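The genes described here are 38 genes of the autophagy machinery, its cargo receptors and its transcription factors, chosen by name. Of these, 36 had a probe set annotated to that symbol alone, out of 22180 genes measured in all; a gene with several such probe sets is given by the one with the highest mean. Optn and Bnip3l are not analysed here. The arrays came from gonadal white adipose tissue, the epididymal fat pad, of male C57BL/6 mice aged 3 to 4 months. In the fed group (8 samples) food was freely available, and the fasted group (8 samples) had none for 16 hours; tissue was taken in the morning in both, and the labels name no mutation or agent. The labels do not say that each sample was a separate mouse, so p-values here reflect only how far these samples spread. Values are log2 expression after RMA, an array normalization that brings arrays toward a shared distribution, so each change is relative to the other genes on the array.

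Autophagy delivers cytoplasm, protein aggregates and worn organelles to lysosomes inside a double membrane, the autophagosome, and is best known as a response to lack of nutrients. A kinase complex starts the process, a lipid kinase complex marks the site, membrane is supplied and shaped, and a pair of ubiquitin-like conjugation reactions attaches proteins of the ATG8 family (LC3 and GABARAP) to the growing membrane. ATG8 proteins recruit cargo receptors, which are broken down along with their cargo. In fat cells, autophagy is known for its part in clearing mitochondria and in lipid turnover.

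After the fast 11 of the 36 genes were higher and 2 lower. At the same threshold, an adjusted p under 0.05 in the limma fit over all genes, 8.49% of all genes rose and 10.7% fell, so 30.6% of the autophagy genes rose and 5.56% fell beside these shares; in either direction it was 13 of 36 (36.1%) beside 19.2%. After subtraction of array medians the counts were again 11 and 2, beside 9.40% and 7.80% of all genes. Among the genes that passed the dimness filter (8 or more arrays at a linear value of 20 or higher), 12 of 35 autophagy genes rose and 4 fell, beside 18.2% and 23.8% of all genes past that filter. The genes that rose encode the ATG8 proteins Gabarapl1 and Map1lc3b, the cargo receptors Sqstm1 and Nbr1, the mitochondrial receptor Bnip3, the kinase subunits Ulk1 and Rb1cc1, and the membrane factors Wipi1, Wdr45, Atg2a and Atg2b. Both genes that fell, Atg10 and Atg4a, belong to the conjugation system. The groups did not overlap for 8 of the genes that rose, against 3.03% of all genes, and for 1 that fell, against 3.45%. The median log2 fold change of the 36 genes was 0.089, beside -0.0042 over all genes. The largest rise, that of Gabarapl1, was the 129th largest of the 22180 genes.

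**Figure D1:**
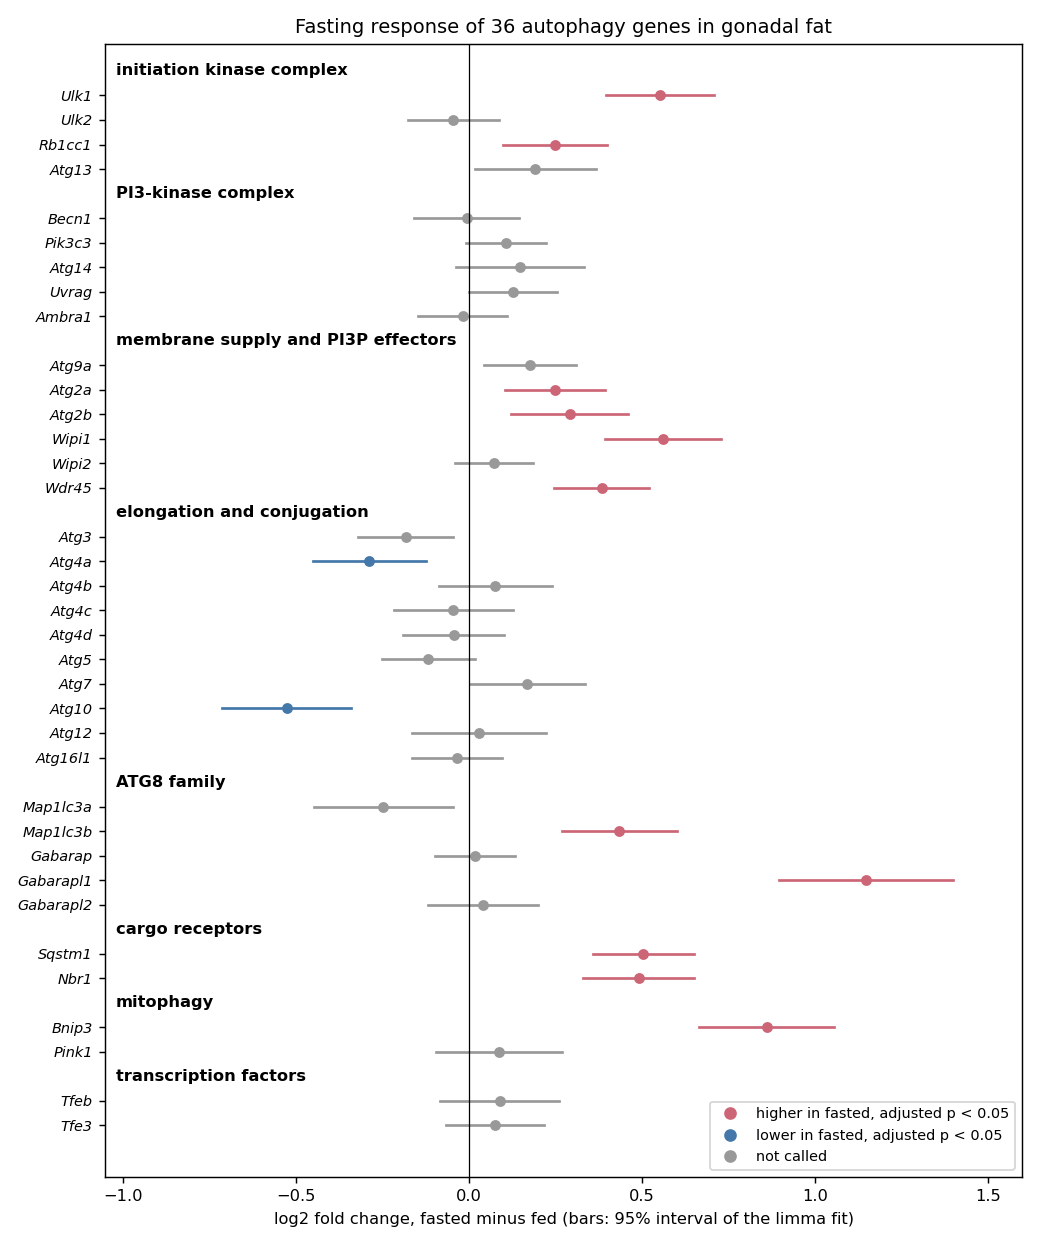
Log2 fold change of 36 autophagy genes (fasted minus fed, horizontal axis), grouped by step, with points for the estimate, bars for the 95% interval of the limma fit over 8 samples a group, and colour for the call. Rises sit in the initiation, membrane, ATG8, receptor and mitophagy groups and reach 1.15 for Gabarapl1, and the called falls, Atg10 and Atg4a, sit in the conjugation group.

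Marker genes showed the labelled tissue along with liver transcripts, and some markers of its cell types differed between the groups. Per sample, the summed linear level of 7 adipocyte markers lay between 16416 and 19686 in fed and between 16423 and 17728 in fasted arrays, with 1 marker called higher (Cidec) and 2 lower (Lep and Plin1). In the endothelial list 3 of 7 markers (Pecam1, Tek and Eng) rose and none fell (limma; at an unadjusted p under 0.05, 6 rose and 0 fell; by the exact rank sum test, 2 rose and 0 fell), and its summed level was 3669 to 5028 in fed and 4740 to 5863 in fasted arrays. Of 7 macrophage markers 2 rose, Cd68 and Cd14, and 2 fell (Mrc1 and Ptprc), with sums of 3432 to 3928 and 3407 to 5353. The lists of progenitors (6 measured), mesothelium (5) and ciliated epithelium (5) had 1 called gene each, Lum, Krt19 and Tppp3, all lower in fasted arrays. In the progenitor list 3 of 6 changes were above 0, and at an unadjusted p under 0.05 (limma) 2 genes were higher and 2 lower. Its summed level was 5547 to 6600 in fed and 5855 to 7921 in fasted arrays. Tppp3 had a fed median of 8.56, against 2.60 to 3.31 for Foxj1, Dnah5, Tekt1 and Rsph1. These had log2 fold changes of -0.039, -0.033, 0.23 and -0.12, and none was called. By the exact rank sum test the macrophage list had 2 higher and 1 lower, the progenitor list 1 and 1, and the ciliated list 0 and 1. The mesothelial list had 0 in either direction by that test. In it 1 of 5 changes was above 0, and at an unadjusted p under 0.05 (limma) 0 genes were higher and 2 lower, Krt19 and Upk3b. The log2 fold change of Upk3b was -0.50 (limma, adjusted p = 0.0867). The median of the summed mesothelial level was 1517 in fed and 1043 in fasted arrays. Krt19 (limma, adjusted p = 0.0487) had an adjusted p of 0.143 without the 3 arrays named below. Markers of epididymis, liver, muscle, T cells and B cells had 0 called of 22 (limma; 0 at an unadjusted p under 0.05, and 0 by the exact rank sum test), beside 19.2% of all genes called by limma. Many were dim, with fed median sums of 21.1 over 3 epididymis, 68.4 over 6 muscle and 25.4 over 2 B cell markers. Liver markers varied widely within a group (Alb, SD 1.32 in fed arrays). The absence of calls therefore does not show that the groups were alike in these cells. Liver transcripts were nevertheless strong in every array. Alb had log2 values of 9.07 to 12.07 in fed and 9.04 to 11.78 in fasted arrays. Its fed median was 10.50, beside 10.87 for Adipoq. Single arrays were also high in some of these lists. The liver sum ran from 780 to 7641 in fed arrays (highest in replicate 2) and from 866 to 5643 in fasted arrays (highest in replicate 4). The epididymis sum reached 84.6 in fed replicate 2, against a fed median of 21.1, and 40.5 in fasted replicate 7, against a fasted median of 20.9. In the same arrays Dnah5, a marker of ciliated epithelium, had its highest log2 values, 6.60 and 5.72, against group medians of 2.60 and 2.68. An array gives no marker a level of 0, and in whole fat fewer cells of a type and less RNA per cell cannot be told apart. The part of these marker differences in the results on autophagy genes was not tested. Fed replicates 2 and 3 and fasted replicate 7 stood apart on the second (first and last of these) or the third principal component over all genes (53.0, 34.9 and 37.1, in components with 17.9%, 7.91% and 17.9% of the variance). Without them, 10 autophagy genes rose and 2 fell, beside 7.23% and 10.3% of all genes in that fit. Rb1cc1 and Atg4a were lost there and Map1lc3a was added on the lower side.

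Among the genes that start autophagosome formation, 2 of 4 members of the ULK kinase complex rose, beside 8.49% of all genes. Ulk1, the kinase that receives the signals of mTORC1 and AMPK, had a lowest, median and highest log2 value of 6.93, 7.13 and 7.33 in fed and 7.39, 7.70 and 7.85 in fasted arrays. All 8 fasted arrays lay above the highest fed array, with fasted replicate 4 nearest to it. The rise was 1.47-fold (change 0.55 ± 0.074, adjusted p = 2.37e-05, where the change is the log2 fold change, fasted minus fed, ± its SE). Its relative Ulk2 stood at 8.34, 8.50 and 8.60 in fed and 8.29, 8.46 and 8.54 in fasted arrays, which overlapped (change -0.044 ± 0.062, adjusted p = 0.725). The changes of the pair differed by 0.60 on the log2 scale (95% interval 0.39 to 0.80; exact permutation p = 3.11e-04, adjusted p = 6.84e-04). Rb1cc1, the scaffold FIP200 on which the complex is built, rose 1.19-fold, from 7.19, 7.45 and 7.68 to 7.56, 7.70 and 7.86 (adjusted p = 0.018). Of its fasted arrays 5 lay above all fed arrays, and the call was lost without the 3 arrays that stood apart (adjusted p = 0.0929). Atg13, the adaptor between kinase and scaffold, had a log2 fold change of 0.19 (adjusted p = 0.128) and ranged from 7.34 to 7.92 in fasted arrays; without fasted replicate 2, its lowest, it passed the threshold (adjusted p = 0.0293).

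No member of the phosphatidylinositol 3-kinase complex, which produces the lipid PI3P where the membrane forms, passed the test. Among its 5 genes 0 were called by limma and 0 by the exact rank sum test, with 1 at an unadjusted p under 0.05. Since 19.2% of all genes were called in either direction, a count of 0 in 5 does not set the complex apart. That gene was Uvrag, which forms an alternative complex with Beclin 1, at a log2 fold change of 0.13 (limma, adjusted p = 0.172). Becn1, which encodes Beclin 1, stood at 6.96, 7.15 and 7.41 in fed and 7.01, 7.10 and 7.40 in fasted arrays, with a 95% interval for its change of -0.16 to 0.15. The interval was -0.0089 to 0.22 for the catalytic subunit Pik3c3 and -0.037 to 0.33 for Atg14, which directs the complex to autophagosomes. Ambra1, a scaffold that regulates Beclin 1, changed by -0.018 (SE 0.061). The intervals of these 5 genes reached at most 0.33 in either direction.

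Of 6 genes for membrane supply and for proteins that act with PI3P, 4 rose, beside 8.49% of all genes. Wipi1, a PI3P sensor at the forming membrane, ranged as 6.65, 7.07 and 7.12 (lowest, median, highest) in fed and 7.40, 7.51 and 7.81 in fasted arrays. The groups were separate, fed replicate 3 standing below the other fed arrays. Its rise was 1.48-fold (change 0.56 ± 0.080, adjusted p = 4.19e-05). Wipi2, which recruits the conjugation machinery, had a log2 fold change of 0.074 (adjusted p = 0.426). The change of Wipi1 was larger than that of Wipi2 by 0.49 on the log2 scale (95% interval 0.33 to 0.64; exact permutation p = 1.55e-04, adjusted p = 4.27e-04). Wdr45, another protein of this family, rose 1.31-fold, from 7.60, 7.76 and 7.93 to 7.99, 8.18 and 8.30, again without overlap (change 0.38 ± 0.065, adjusted p = 2.55e-04). Both forms of the lipid transfer protein ATG2 rose. Atg2a went from 6.51, 6.58 and 6.81 to 6.65, 6.88 and 7.04 (1.19-fold, adjusted p = 0.0139) and Atg2b from 6.32, 6.49 and 6.62 to 6.50, 6.78 and 7.11 (1.22-fold, adjusted p = 0.0141), and both overlapped with the fed range. Their changes differed by -0.043 on the log2 scale (95% interval -0.25 to 0.16; exact permutation adjusted p = 0.975). Atg9a, the scramblase carried by the vesicles that seed the membrane, did not pass the threshold (log2 fold change 0.18, adjusted p = 0.0579), although 6 of 8 fasted arrays lay above all fed arrays and it was called without fasted replicate 4 or 7, by the exact rank sum test, after cyclic loess and with the dimness filter.

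**Figure D2:**
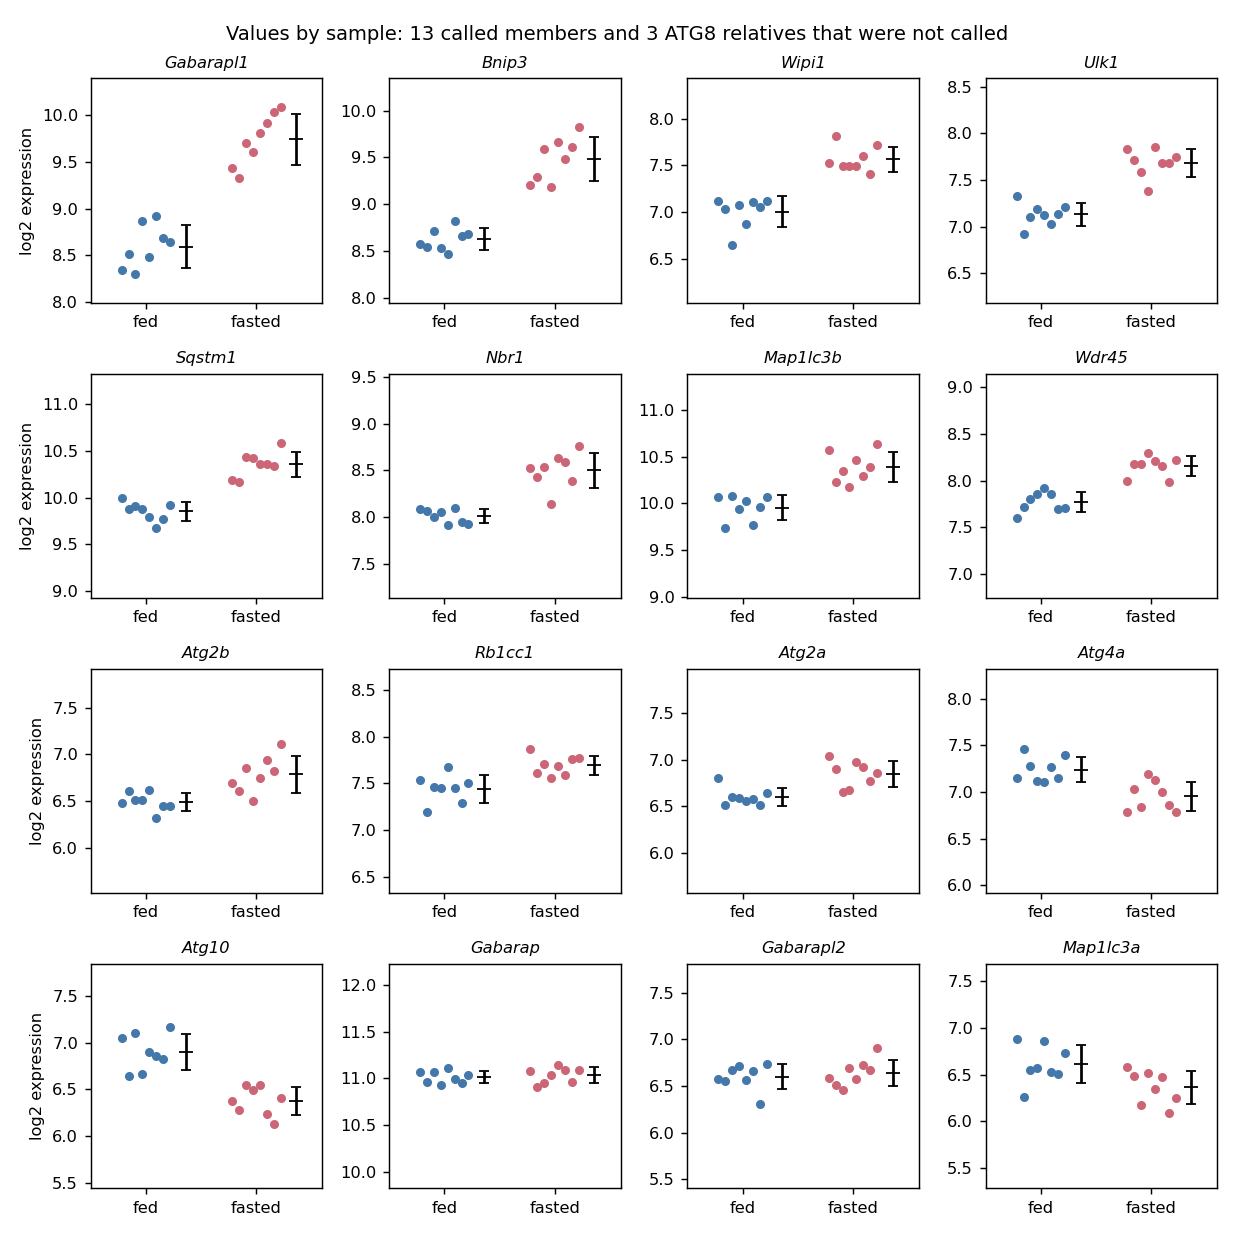
Log2 expression (vertical axes, each spanning the same range) in 8 fed and 8 fasted arrays for the 13 called genes and for Gabarap, Gabarapl2 and Map1lc3a; points are arrays in order of replicate number, which has no meaning, and black marks give the mean and SD. Gabarapl1 and Bnip3 are widely separated between groups, Atg2a, Atg2b, Rb1cc1 and Atg4a overlap, and Gabarap lies between 10.91 and 11.15 in all 16 arrays.

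Among the enzymes that attach ATG8 proteins to membrane, 0 of 10 were called higher (limma; 1 at an unadjusted p under 0.05, Atg7, and 0 by the exact rank sum test), 2 were called lower, and the median log2 fold change was -0.044. With 8.49% of all genes called higher and 10.7% lower, counts of 0 and 2 in 10 are near the share over all genes. Atg10, the E2-like enzyme that joins ATG12 to ATG5, had a lowest, median and highest value of 6.65, 6.88 and 7.16 in fed and 6.13, 6.39 and 6.55 in fasted arrays. Every fasted array was below every fed array, and the fall was 1.44-fold (change -0.53 ± 0.089, adjusted p = 2.43e-04). Atg4a, a protease that processes ATG8 proteins, fell from 7.11, 7.21 and 7.46 to 6.78, 6.93 and 7.19 (1.22-fold, adjusted p = 0.0129). Here 6 of 8 fasted arrays lay below the fed range, and without the 3 arrays that stood apart the adjusted p was 0.0843. The most studied form of this protease, Atg4b, stood at 6.64, 6.86 and 7.12 and 6.77, 6.93 and 7.19 (change 0.077 ± 0.078, adjusted p = 0.597). The change of Atg4a lay below that of Atg4b by an estimate of -0.36 on the log2 scale (95% interval -0.60 to -0.13; exact permutation p = 0.00357, adjusted p = 0.00655). The remaining forms, Atg4c and Atg4d, had log2 fold changes of -0.045 and -0.043, which differed by -0.0014 on the log2 scale (95% interval -0.17 to 0.16; exact permutation adjusted p = 0.986).

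The transfer enzyme Atg3, the activating enzyme Atg7 and the genes of the ATG5 complex were not called. Atg3, the E2-like enzyme that transfers ATG8 proteins to lipid, was the steadiest of the 36 genes in fed arrays (8.33, 8.36 and 8.44; SD 0.047) and was lower in 7 of 8 fasted arrays (8.00, 8.18 and 8.47). The exception was fasted replicate 1, its highest; the log2 fold change was -0.18 (SE 0.065, adjusted p = 0.0606), and without that array the adjusted p was 0.00993. Atg3 was also called with the dimness filter and with limma's trend and robust settings. Atg7, the E1-like enzyme of both reactions, had 0.17 (adjusted p = 0.164) and Atg5, part of the complex that directs lipidation, -0.12 (adjusted p = 0.25). For the other parts of that complex the 95% interval of the change was -0.16 to 0.22 (Atg12) and -0.17 to 0.095 (Atg16l1).

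In the ATG8 family the response differed between close relatives. Gabarapl1, whose product helps autophagosomes mature, had log2 values of 8.30, 8.58 and 8.92 (lowest, median, highest) in fed and 9.32, 9.76 and 10.09 in fasted arrays. The lowest fasted array, replicate 2, lay well above the highest fed array, replicate 6, and the rise was 2.22-fold (change 1.15 ± 0.12, adjusted p = 1.29e-06). Gabarap itself stood at 10.93, 11.02 and 11.11 and 10.91, 11.06 and 11.15 (change 0.018 ± 0.055, adjusted p = 0.888), and the second probe set of Gabarap had 0.11 (adjusted p = 0.458 over all probe sets). Gabarapl2, also known as GATE-16, was at 6.31, 6.62 and 6.73 and 6.46, 6.63 and 6.91 (change 0.042 ± 0.075, adjusted p = 0.796). Measured within each array, the change of Gabarapl1 exceeded that of Gabarap by 1.13 on the log2 scale (95% interval 0.84 to 1.41; exact permutation p = 1.55e-04, adjusted p = 4.27e-04) and that of Gabarapl2 by 1.11 on the log2 scale (95% interval 0.86 to 1.35; exact permutation p = 1.55e-04, adjusted p = 4.27e-04). Between Gabarap and Gabarapl2 the difference of changes was -0.023 on the log2 scale (95% interval -0.16 to 0.12; exact permutation adjusted p = 0.975).

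The LC3 genes differed as well. Map1lc3b, the form used most widely as an autophagosome marker, went from 9.74, 9.99 and 10.08 to 10.18, 10.37 and 10.64, a 1.35-fold rise with no overlap (change 0.43 ± 0.079, adjusted p = 4.97e-04). Map1lc3a stood at 6.26, 6.57 and 6.88 in fed and 6.09, 6.41 and 6.58 in fasted arrays, with 3 fasted arrays below the fed range (change -0.25 ± 0.096, adjusted p = 0.0828). It passed the threshold on the lower side without fed replicate 2, its lowest fed array (adjusted p = 0.0257), without the 3 arrays that stood apart (0.0496) and with the dimness filter. The change of Map1lc3a minus that of Map1lc3b was -0.68 on the log2 scale (95% interval -0.91 to -0.46; exact permutation p = 1.55e-04, adjusted p = 4.27e-04), and all 8 fasted arrays lay below the fed arrays in this difference. In all, 11 pairs of related genes were compared by two-sided exact permutation of the 16 arrays with Benjamini-Hochberg adjustment over the pairs, and 6 differed; 0.000155 is the smallest p that 12870 permutations can give. The pairs were chosen with some of these changes known.

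**Figure D3:**
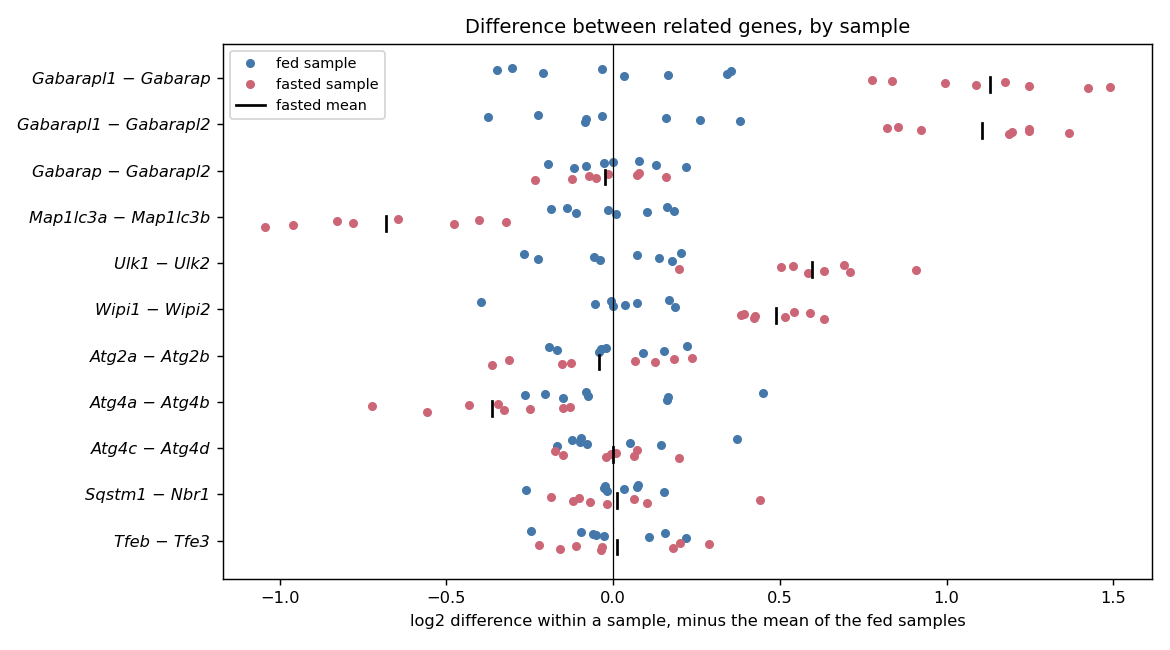
For 11 pairs of related genes, the difference of their log2 values within each array, minus the mean difference of the fed arrays (horizontal axis); points are arrays and black lines the fasted means. The differences of Gabarapl1 to Gabarap and to Gabarapl2 shift upward by 1.13 and 1.11. The mean difference goes from -2.42 in fed to -1.29 in fasted arrays for Gabarap and from 2.00 to 3.10 for Gabarapl2. Gabarap against Gabarapl2, Sqstm1 against Nbr1 and Tfeb against Tfe3 stay around 0.

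Promoter sequence is shown for the GABARAP genes, which parted in their response, and for Bnip3, the gene with the next largest rise, so that the windows can be read side by side. Each is the 250 bases before the RefSeq start of the gene, from the promoter table of build GRCm38.p6, written 5′ to 3′ on the strand of the gene: Gabarapl1 at chr6:129532942-129533191 (plus strand, within the noncoding gene 1700101I11Rik), Gabarap at chr11:69991120-69991369 (plus), Gabarapl2 at chr8:111940453-111940702 (plus) and Bnip3 at chr7:138909507-138909756 (minus). Capitals mark matches, on either strand, to any of 4 motifs. These were the core of the E-box that TFEB and TFE3 bind (CACGTG), the core of the hypoxia response element (ACGTG), which lies within the former, the site bound by FOXO factors (TGTTTAC), and part of the site of the glucocorticoid receptor (AGAACA).
Gabarapl1: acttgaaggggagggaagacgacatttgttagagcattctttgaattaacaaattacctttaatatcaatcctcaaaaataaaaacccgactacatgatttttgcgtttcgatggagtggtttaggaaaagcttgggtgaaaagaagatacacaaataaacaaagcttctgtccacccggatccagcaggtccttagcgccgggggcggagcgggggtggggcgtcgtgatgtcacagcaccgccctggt
Gabarap: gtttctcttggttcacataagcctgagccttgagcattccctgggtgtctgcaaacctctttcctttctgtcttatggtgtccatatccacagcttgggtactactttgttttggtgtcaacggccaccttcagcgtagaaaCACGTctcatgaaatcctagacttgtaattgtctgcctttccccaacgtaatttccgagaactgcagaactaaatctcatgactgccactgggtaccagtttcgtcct
Gabarapl2: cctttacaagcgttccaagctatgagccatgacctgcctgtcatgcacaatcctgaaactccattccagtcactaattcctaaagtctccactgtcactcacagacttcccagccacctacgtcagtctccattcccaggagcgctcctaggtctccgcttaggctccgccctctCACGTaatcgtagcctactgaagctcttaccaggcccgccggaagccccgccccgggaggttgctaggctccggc
Bnip3: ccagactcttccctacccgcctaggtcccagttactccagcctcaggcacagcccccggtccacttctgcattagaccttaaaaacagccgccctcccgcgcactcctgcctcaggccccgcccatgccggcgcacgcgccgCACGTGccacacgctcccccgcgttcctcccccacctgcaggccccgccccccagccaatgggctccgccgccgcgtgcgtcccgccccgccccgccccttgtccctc

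Matches were found in genes that rose, fell and were not called. The Gabarapl1 window held none of the 4 motifs, those of Gabarap and Gabarapl2 held ACGTG on the reverse strand, starting 108 and 75 bases before the start, and that of Bnip3 held CACGTG 108 bases before the start. The GC content of the 4 windows was 46.8% (Gabarapl1), 46.4% (Gabarap), 57.2% (Gabarapl2) and 72.4% (Bnip3), against a median of 52.4% over all windows. Of the 36 measured genes 30 had at least 1 window. A gene was counted if any of its windows matched, and the 31 listed genes with a window had 37 windows. The shares of all windows are per single window, so gene counts and shares are unlike measures. CACGTG was found in 1 of 10 genes that rose (Bnip3), 0 of 2 that fell and 3 of 18 that were not called (Atg3, Atg5 and Atg7), and in 6.02% of all 32851 windows. ACGTG was found in 3, 1 and 7 of these genes and in 16.6% of all windows. AGAACA was found in 1, 0 and 2 of them and in 16.1% of all windows, and TGTTTAC in none of them and in 3.17% of all windows. Such a match is a description of the window, and no match says only that these letters are not in it.

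Both measured cargo receptors rose, beside 8.49% of all genes. Sqstm1 encodes p62, which links ubiquitinated cargo to ATG8 proteins and is itself consumed by autophagy. It had 9.67, 9.88 and 10.00 as its lowest, median and highest log2 value in fed and 10.17, 10.36 and 10.58 in fasted arrays, which did not overlap, with fasted replicate 8 the highest. The rise was 1.42-fold (change 0.50 ± 0.069, adjusted p = 2.88e-05). Nbr1, a related receptor that binds p62, went from 7.91, 8.03 and 8.09 to 8.14, 8.53 and 8.76, 1.41-fold higher (change 0.49 ± 0.076, adjusted p = 1.09e-04). Its SD was 0.19 over fasted and 0.074 over fed arrays, and fasted replicate 4 came closest to the fed range. The changes of Sqstm1 and Nbr1 differed by 0.013 on the log2 scale (95% interval -0.16 to 0.19; exact permutation adjusted p = 0.975).

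Of the 2 measured mitophagy genes, Bnip3 rose and Pink1 did not pass the test, where 8.49% of all genes rose. Bnip3, a receptor in the outer mitochondrial membrane that binds ATG8 proteins directly and is known as a target of hypoxia and FOXO signalling, stood at 8.47, 8.61 and 8.82 in fed and 9.18, 9.54 and 9.83 in fasted arrays. Its lowest fasted arrays, replicates 4 and 1, were still above all fed arrays, and the rise was 1.82-fold (change 0.86 ± 0.093, adjusted p = 1.95e-06). Pink1, the kinase that marks damaged mitochondria for the Parkin pathway, had 8.10, 8.30 and 8.53 and 8.12, 8.45 and 8.55 (change 0.088 ± 0.086, adjusted p = 0.586; 95% interval -0.094 to 0.27).

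The transcription factors TFEB and TFE3, which move into the nucleus and switch on autophagy and lysosome genes when mTORC1 is inactive, did not pass the test at the level of their own transcripts. Of the pair, 0 were called by limma, 0 at an unadjusted p under 0.05 and 0 by the exact rank sum test. With 19.2% of all genes called by limma, a count of 0 in 2 does not set the pair apart. Tfe3 had 7.19, 7.47 and 7.52 in fed and 7.36, 7.48 and 7.71 in fasted arrays (change 0.076 ± 0.068, adjusted p = 0.537). Tfeb was dim, at 3.35, 3.49 and 3.68 and 3.32, 3.55 and 3.80, and was the only one of the 36 genes below the dimness filter, so a change of its transcript is measured poorly (change 0.089 ± 0.081, adjusted p = 0.552).

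**Figure D4:**
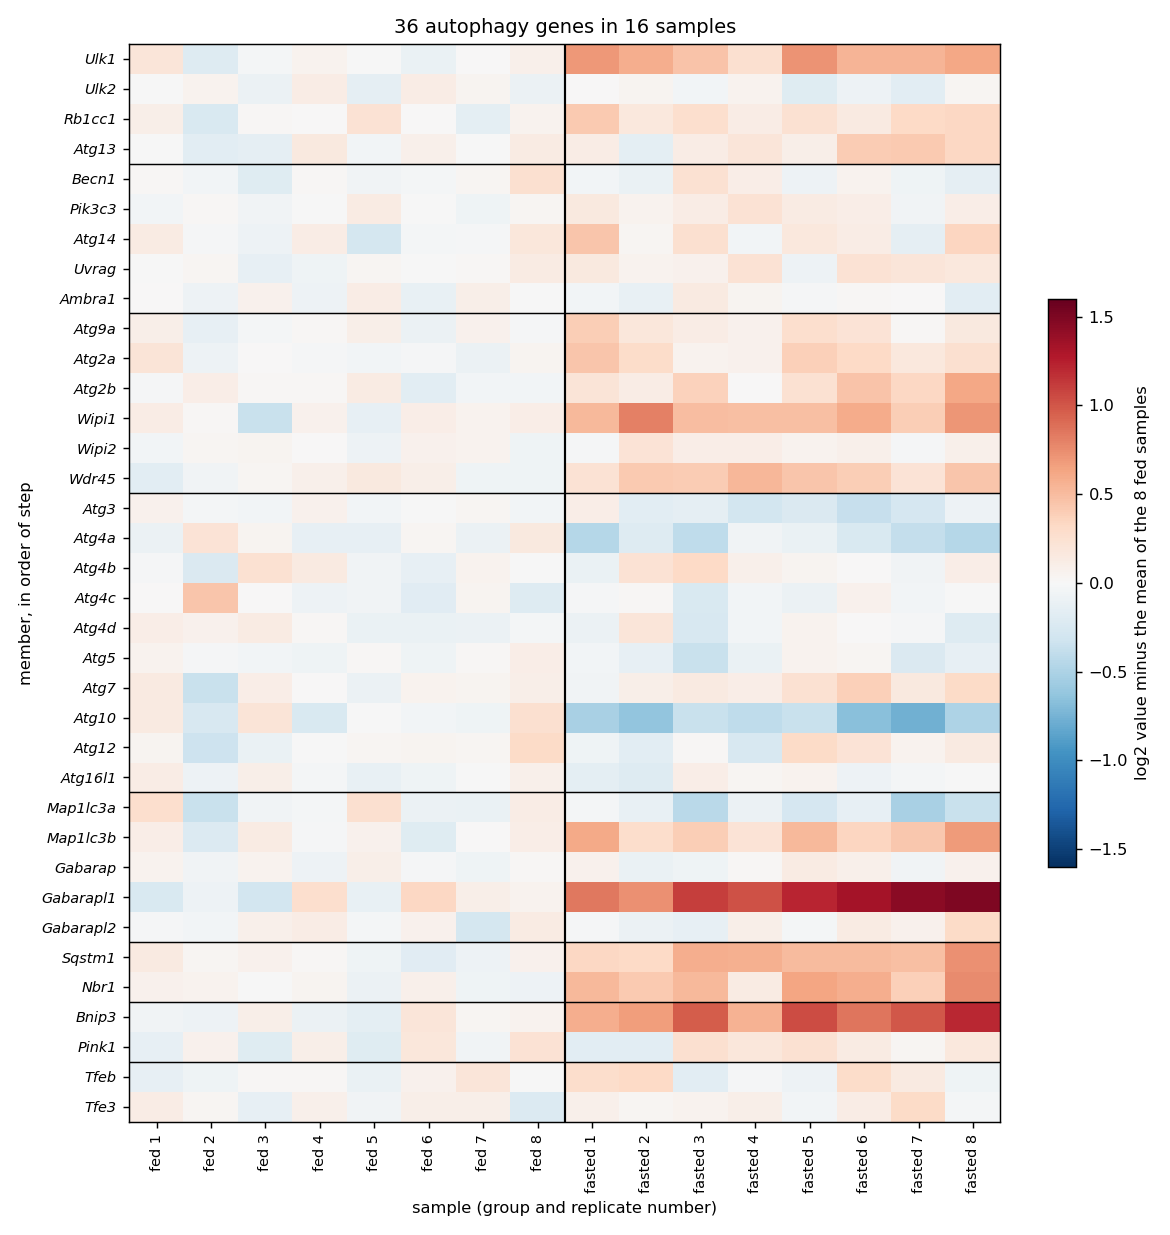
Log2 value of each of 36 genes minus the mean of the 8 fed arrays (colour), with genes in rows by step, separated by lines, and arrays in columns, fed on the left and fasted on the right. Gabarapl1, Bnip3, Ulk1, Wipi1, Sqstm1 and Nbr1 are raised in all 8 fasted arrays and Atg10 is lowered in all 8, while the rows of the phosphatidylinositol 3-kinase complex stay pale.

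Genes of the pathway outside the 38 were taken from 5 further lists. Of 10 other genes of the early steps 5 rose and 1 fell, beside 8.49% and 10.7% of all genes. The median log2 fold change of the list was 0.20. Vmp1, an endoplasmic reticulum scramblase needed for the forming membrane, rose 3.50-fold (change 1.81 ± 0.15, adjusted p = 9.24e-08), its 8 fasted arrays between 6.48 and 7.81 against 5.19 to 5.95 in fed arrays. Atg101, a subunit that stabilises ATG13 in the kinase complex, rose 2.14-fold (change 1.10 ± 0.12, adjusted p = 1.99e-06). Sh3glb1, which binds UVRAG, rose 1.29-fold (adjusted p = 5.26e-04), and Tmem41b, a scramblase that works with VMP1, fell by 0.32 on the log2 scale (adjusted p = 0.00325).

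Among 16 other receptors and mitophagy genes 5 rose and 1 fell (31.2% and 6.25%), beside 8.49% and 10.7% of all genes. The median log2 fold change of the list was 0.078. Retreg1, also called FAM134B, a receptor for autophagy of the endoplasmic reticulum, went from 4.51, 4.70 and 6.10 to 5.99, 6.43 and 7.26 (3.12-fold; change 1.64 ± 0.22, adjusted p = 2.52e-05). Its groups overlapped, with fed replicate 2 at 6.10 and 6 of 8 fasted arrays above it. The mitochondrial receptor Bcl2l13 rose 1.54-fold (adjusted p = 5.87e-04) and Calcoco1 1.21-fold (adjusted p = 0.00775). Fkbp8, another outer membrane receptor, fell by 0.23 (adjusted p = 0.0356, and up to 0.0774 with 1 array left out).

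At the late steps calls for fusion with lysosomes were near the share over all genes (8.49% higher, 10.7% lower). Of 13 genes 1 rose, the SNARE Vamp8 (1.22-fold, adjusted p = 0.00779), and 1 fell, the SNARE Ykt6 (log2 fold change -0.43, adjusted p = 1.05e-04). In the lysosome list 6 of 26 genes rose and 1 fell, with a median of 0.037. The acid lipase Lipa rose 1.40-fold (adjusted p = 2.97e-05) and the sialidase Neu1 1.28-fold (adjusted p = 0.00632). The cholesterol exporter Npc1 rose 2.68-fold (adjusted p = 5.36e-09), while the remaining probe set for it had 0.37 (adjusted p = 0.0668 over all probe sets), and the sulfatase Sgsh had a log2 fold change of -0.67 (adjusted p = 6.21e-05).

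Upstream of autophagy, 7 of 21 regulators rose and 2 fell. Ddit4 and Sesn2, which restrain mTORC1, rose 8.46-fold and 3.30-fold (adjusted p = 3.02e-09 and 1.56e-07), and both had separate groups. Mitf, a relative of TFEB and TFE3, had 5.45, 5.67 and 5.98 in fed and 6.28, 6.58 and 6.71 in fasted arrays and rose 1.83-fold (change 0.87 ± 0.088, adjusted p = 8.85e-07). Prkaa2, which encodes a catalytic subunit of AMPK, had -0.64 ± 0.10 (log2 fold change and SE, adjusted p = 1.09e-04). Taking the other lists as 1, 24 of 86 genes rose (27.9%) and 6 fell (6.98%), beside 8.49% and 10.7% of all genes. Among all genes past the dimness filter, 18.2% rose and 23.8% fell, and the counts of these lists in that fit are not given here.

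**Figure D5:**
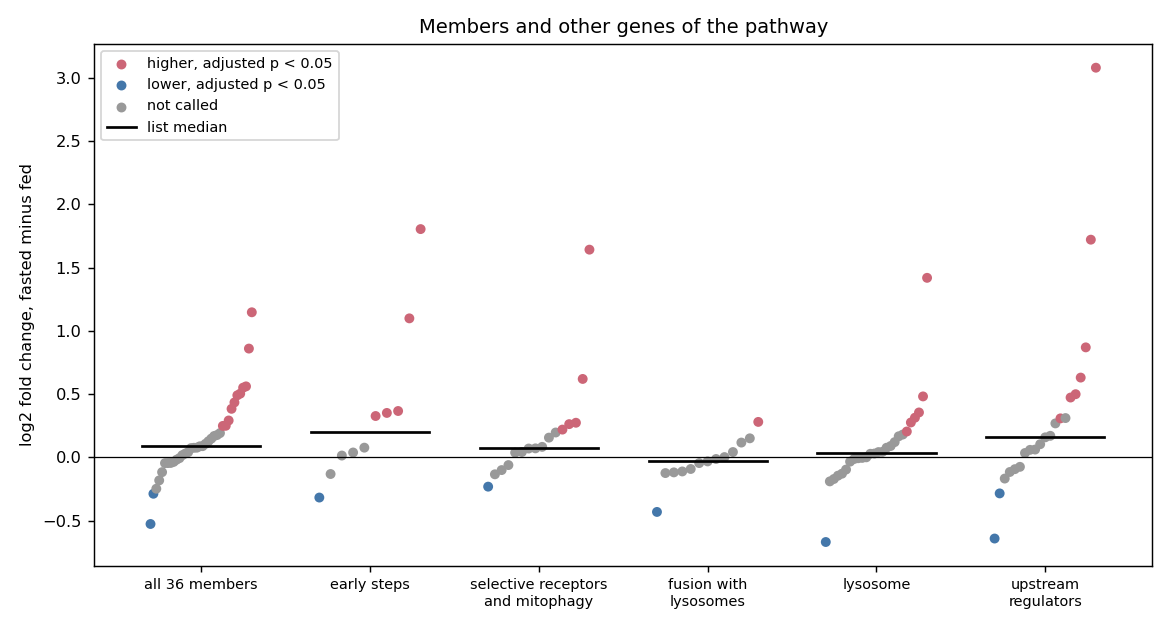
Log2 fold change (fasted minus fed, vertical axis) of each of the 36 genes and of each gene in 5 other lists of the pathway, sorted within a list; colour marks the call and black lines the list medians. Medians lie between -0.031 (fusion with lysosomes) and 0.20 (early steps), and the highest points are Ddit4 at 3.08, Vmp1 at 1.81, Sesn2 at 1.72 and Retreg1 at 1.64.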

How the data were processed

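RNA from gonadal fat was labelled (100 ng per sample) and hybridised to 16 Affymetrix arrays. The deposited values are log2 expression, made with RMA per the submitters' processing notes. Scanner files are not used here. Of 41345 probe sets, 23521 had 1 gene symbol in the platform annotation, 1814 had several and 16010 none; 23328 of those with 1 symbol were matched by gene ID to RefSeq. The probe set with the highest mean stood for each of 22180 genes. Array medians lay between 3.60 and 3.69 and correlations between arrays between 0.966 and 0.993; the number of arrays limits the precision. Optn had no probe set with its symbol alone and that of Bnip3l names 2 genes, so the pair of Bnip3 and Bnip3l, 1 of 12 listed, was not tested.

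Fed and fasted groups were compared with limma 3.58.1 (R 4.3.3; lmFit, eBayes) over all genes, with Benjamini-Hochberg adjustment over 22180 genes and a threshold of 0.05. Tested on simulated data for this comparison, with 22180 genes, the fit recovered 67.2% of 67 genes changed by 0.5 (log2), 97.0% of 67 changed by 1 and 97.0% of 66 changed by 2, with 12 false calls. Pairs of genes were compared by exact permutation of samples (scipy 1.17.1). Intervals are 95%. Alternatives were the dimness filter, array medians subtracted, cyclic loess, other variance settings, the exact rank sum test, a stricter threshold, the probe set with the lowest mean, the replicate block and leaving out arrays; leaving out the 3 arrays together was chosen after seeing the data. Members and lists were chosen with earlier results of these data known. All members may be named. Of each other list, the called genes with the largest rise and the largest fall are named, and up to 2 more called genes by size of change. Of a marker list the 2 largest changes may be named, which was not done for every list. Other named markers were chosen after their values were seen.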

Additional observations from a re-analysis of the deposited data

Results flagged for a closer look

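In 5 of 72 groups of 8 values (36 genes in each of 2 groups), 1 array stood apart from the other 7 by Dixon's criterion, where chance gives about 1 in 20 groups, or 3.6. The Atg2a value of 6.81 in fed replicate 1 was above the others at 6.51 to 6.64. For Atg4c, fed replicate 2 had 7.14 and the others 6.49 to 6.74. For Atg7, the same array had 7.09 and the others 7.36 to 7.59. Gabarapl2 was at 6.31 in fed replicate 7 and at 6.55 to 6.73 in the rest. Tfe3 reached 7.71 in fasted replicate 7 against 7.36 to 7.52. None of the 5 genes but Atg2a was called, and Atg2a was called with each array left out in turn.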

How the results depend on the processing

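All 13 calls were kept with each of the 16 arrays left out in turn, where 3823 to 4265 genes were called, 11 to 12 autophagy genes were higher, 2 to 3 lower and 28 to 31 other pathway genes changed. With the dimness filter 4 autophagy genes were lower (Atg3 and Map1lc3a added) and 12 higher. At an adjusted p under 0.01, the genes called numbered 2766, and of the autophagy genes 8 were higher and 1 lower; Atg2a, Atg2b, Rb1cc1 and Atg4a were lost. Array medians subtracted, cyclic loess, other variance settings, the exact rank sum test and the probe set with the lowest mean each kept all 13 calls (other variance settings added Atg3), and 6 of 11 pairs differed under each alternative run for them. With the replicate block 10 autophagy genes were higher and 2 lower of 3829 called, and Atg2b was lost (adjusted p = 0.0509); same-numbered arrays correlated between -0.216 and 0.218, with 2 of 8 above 0.1, and 2 of 8 fed arrays correlated best with their own number, so the numbers did not pair the samples. No called value changed sign; 18 uncalled values did. Tfeb was too dim to measure a change well.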

Other observations

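The autophagy genes varied among arrays of 1 group by an SD of 0.047 (Atg3) to 0.23 (Gabarapl1) in fed arrays and of 0.076 (Wipi2) to 0.28 (Gabarapl1) in fasted arrays, on the log2 scale. The median SD over the 36 genes was 0.12 in fed and 0.14 in fasted arrays, beside 0.19 and 0.20 over all genes. These sets are unlike in level, since 35 of the 36 genes but 10832 of all 22180 passed the dimness filter. The SD over genes past that filter is not given here. Fasted replicate 8 had the highest value of 6 of the 11 genes that rose, and fasted replicate 4 the lowest of 6.

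Gabarapl1 was set against the other 12 called genes across the 8 arrays of each group, 24 relations in all, and none passed Benjamini-Hochberg adjustment. In fasted arrays Pearson's r ran from -0.28 to 0.82. The highest was with Bnip3, the mitochondrial receptor (r = 0.82, exact permutation p = 0.0166, adjusted p = 0.294; Spearman's rho 0.786, exact p = 0.0279, adjusted p = 0.335), with r at 0.754 without fasted replicates 2 and 8. In fed arrays r ran from -0.65 to 0.59, with a smallest adjusted p of 0.490 by exact permutation.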
